A study of Mus musculus with 5 samples.

Results

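Osteoblasts, the cells that deposit bone, arise from stromal precursors, and 8 genes known from this lineage were followed here through 5 mouse co-cultures: Alpl, Runx2, Ibsp, Dlx5, Cdh11, Twist1, Twist2 and Pth1r. Members were taken as every probe set whose platform annotation gave one of these symbols and no other. Of the 8 genes, 7 had a probe set, 8 probe sets in all because Ibsp had 2, among 8251 genes and 12488 probe sets measured. No probe set with a single symbol carried Runx2 in the annotation used, so Runx2 was not analysed here. The 396 probe sets annotated with several symbols were left out.

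The arrays measured total RNA of dishes in which haematopoietic cells shared 6 days of culture with a stroma of ST2-T cells, in medium containing the glucocorticoid dexamethasone and active vitamin D. Such conditions form bone-resorbing osteoclasts. The groups were Fos-/- splenocytes infected with a virus named deltaNFAT, Fos-/- splenocytes given a GFP virus (green fluorescent protein), Fos-/- splenocytes without virus, Fos+/+ (wild-type) bone marrow cells and Fos+/+ splenocytes. Each group had 1 array, so no value has a replicate error and no test between groups can be made. All groups shared the stromal cells and both agents, and the Fos genotype named in the labels is that of the haematopoietic cells. The labels used here give no age of the animals, no pooling, no promoter, dose or type of the viruses and no description of the deltaNFAT construct or of the stromal clone. ST2 is a stromal line derived from mouse bone marrow; the labels do not explain the suffix T. Every dish was lysed whole, so fewer cells of a type and less RNA per cell cannot be told apart in any value below.

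In osteoblast formation the runt-domain factor RUNX2 sets the lineage, the homeobox factor DLX5 acts with it downstream of bone morphogenetic proteins, and the basic helix-loop-helix factors TWIST1 and TWIST2 hold RUNX2 back in early precursors. Cadherin 11, encoded by Cdh11, joins neighbouring mesenchymal cells. Pth1r encodes the receptor for parathyroid hormone and its related protein, through which osteoblasts and stromal cells are told to support osteoclasts. Maturing osteoblasts make tissue-nonspecific alkaline phosphatase (Alpl), which clears the mineral inhibitor pyrophosphate, and bone sialoprotein (Ibsp), an acidic matrix protein that binds hydroxyapatite.

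Intensities are on the authors' linear scale in arbitrary units, and values under an intensity of 19.8, the 40th percentile of all values, were treated as the noise floor. The share of probe sets above it ran from 58.3 to 62.3% by array. The lowest 1% of values lay below -77.6 to -133 and the lowest 5% below -28.0 to -49.9, depending on the array. They show how wide the values near 0 spread. A ratio of 2 arrays was counted as a difference when it reached 2-fold and the brighter array reached an intensity of 39.6, 2 times the floor.

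The gene set was only in part detected. Of the 7 genes, 4 lay above the floor in at least 1 array and 3, Alpl, Dlx5 and Pth1r, lay under it in every array. Only Ibsp, Cdh11 and Twist1 were above the floor in all 5 arrays. The label of an osteoblast lineage in the stroma therefore rests in these data on few of its defining genes: alkaline phosphatase, the usual enzyme stain of this lineage, gave no level above the floor, and no probe set with a single symbol carried that of the osteoblast factor Sp7 or of the matrix proteins Bglap (osteocalcin) and Spp1 (osteopontin). The genes are therefore called here by their names and not as a cell type. Mesenchymal matrix genes were bright beside them, with Col1a1, a collagen I chain, between 3417 and 4185 in the 5 arrays.

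The regions before the start sites of Ibsp, Twist1 and Twist2 are shown because these 3 genes gave signal above the floor and had a RefSeq entry (GRCm38.p6). An entry existed for 6 of the 8 genes, and the others were Cdh11 and Dlx5. Each sequence gives the 250 bases before the annotated start, on the strand of the gene, from chr5:104299037-104299286 (plus strand) for Ibsp, chr12:33957421-33957670 (plus strand) for Twist1 and chr1:91801211-91801460 (plus strand) for Twist2. Capitals mark matches, on either strand, to the motif of RUNX factors (ACCACA), the CCAAT box (CCAAT), the TATA box (TATAAA) and the E-box bound by helix-loop-helix factors (CANNTG), of which the TWIST type CATATG is a special case.
Ibsp: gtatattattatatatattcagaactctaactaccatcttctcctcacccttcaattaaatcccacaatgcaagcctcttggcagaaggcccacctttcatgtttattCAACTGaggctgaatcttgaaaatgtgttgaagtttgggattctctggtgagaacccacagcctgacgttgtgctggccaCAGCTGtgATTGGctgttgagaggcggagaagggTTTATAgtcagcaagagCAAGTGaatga
Twist1: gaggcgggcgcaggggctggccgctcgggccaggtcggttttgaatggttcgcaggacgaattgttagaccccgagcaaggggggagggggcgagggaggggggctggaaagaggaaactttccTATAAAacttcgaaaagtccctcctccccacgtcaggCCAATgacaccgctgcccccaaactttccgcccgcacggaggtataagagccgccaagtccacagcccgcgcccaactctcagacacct
Twist2: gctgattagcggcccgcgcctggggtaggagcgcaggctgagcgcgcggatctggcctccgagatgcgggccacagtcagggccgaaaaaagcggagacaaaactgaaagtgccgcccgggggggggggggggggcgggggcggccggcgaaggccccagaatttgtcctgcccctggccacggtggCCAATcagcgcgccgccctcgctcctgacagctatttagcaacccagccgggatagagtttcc

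In the Ibsp sequence the CCAAT box began at -54 and the TATA box at -28 relative to the start, both on the strand opposite to the gene. The rat gene is known for such an inverted pair. Ibsp also held 3 E-boxes, at -142, -62 and -11, none of them of the TWIST type. Twist1 held a TATA box at -126 and a CCAAT box at -89, and Twist2 held a CCAAT box at -63 and no TATA box. No RUNX motif lay in any of these 3 windows. Over 32851 such windows of the whole table, the CCAAT box was present in 33.8%, an E-box in 66.2%, the RUNX motif in 14%, the TATA box in 12.4% and the TWIST type E-box in 3.46%. These matches describe letters, and the arrays measured no binding.

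Ibsp was the brightest member and varied little across the dishes. Its brighter probe set read 168 with deltaNFAT virus, 226 with GFP virus, 233 in Fos-/- spleen, 208 in Fos+/+ bone marrow and 169 in Fos+/+ spleen. The lowest values were thus those of the deltaNFAT and Fos+/+ spleen arrays, and the highest was 1.39 times the lowest. The other probe set of Ibsp lay under the floor in all 5 arrays, so the 2 probe sets do not give the same picture of whether the gene was detected. Which of them reads the transcript was not tested.

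Among the transcription factors, Twist1 was dim and level. It read 44.2 with deltaNFAT virus, 40.3 with GFP virus, 50.3 in Fos-/- spleen, 51.8 in Fos+/+ bone marrow and 59.8 in Fos+/+ spleen, a span of 1.48-fold with all 3 Fos-/- arrays under both Fos+/+ arrays. Twist2, also known as Dermo1, read 76.4 with deltaNFAT virus, 17.7 with GFP virus, 34.5 in Fos-/- spleen, -19.0 in Fos+/+ bone marrow and 93.5 in Fos+/+ spleen. Its values with GFP and in bone marrow were under the floor, while Fos+/+ spleen and deltaNFAT stood highest. Dlx5 had its highest value, 9.50, in Fos-/- spleen and never reached the floor.

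The surface proteins were split in the same way between a gene with signal and one without. Cdh11 read 25.4 with deltaNFAT virus, 97.2 with GFP virus, 61.7 in Fos-/- spleen, 75.3 in Fos+/+ bone marrow and 20.8 in Fos+/+ spleen. The deltaNFAT and Fos+/+ spleen arrays were just above the floor and the other 3 arrays were clearly higher, with 4.67-fold between the extremes. Pth1r ran from -11.2 in Fos-/- spleen to 13.3 with deltaNFAT virus, and Alpl had its highest value, 14.6, with deltaNFAT virus, both under the floor throughout.

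**Figure D1:**
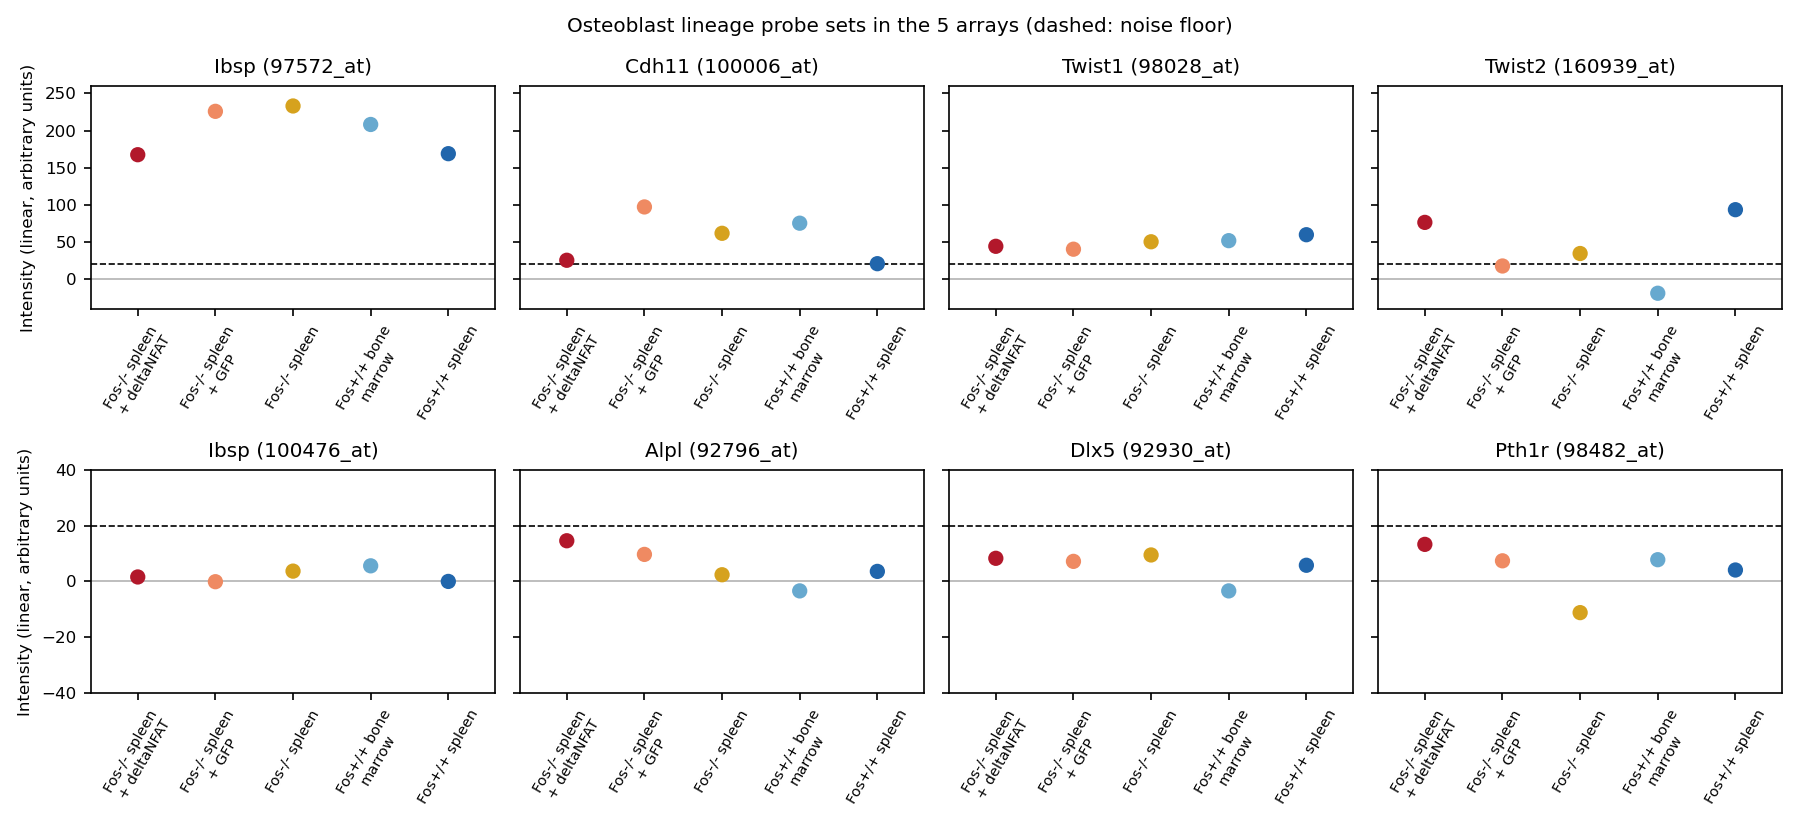
Intensity (linear scale, arbitrary units) of the 8 member probe sets in the 5 arrays, 1 point per array, with the noise floor of 19.8 dashed and 0 in grey; the upper and lower rows have different axes. Ibsp (its brighter probe set) lies between 168 and 233 and Twist1 between 40.3 and 59.8, Cdh11 and Twist2 spread widely, and the lower 4 probe sets stay under the floor.

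From high to low, Cdh11 ran GFP, Fos+/+ bone marrow, Fos-/- spleen, deltaNFAT, Fos+/+ spleen. Twist2 ran Fos+/+ spleen, deltaNFAT, Fos-/- spleen over the 3 arrays in which it was above the floor, and the GFP and Fos+/+ bone marrow arrays, both under it, have no order. With 1 array per group, whether neighbours in either order differ beyond their spread cannot be said. Negative readings of nearly the size of their highest values also occurred, though only in about the lowest 1% of values. Those lay below -91.5 with GFP, where Cdh11 read 97.2, and below -90.2 in Fos+/+ spleen, where Twist2 read 93.5.

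Loss of Fos in the splenocytes was addressed by Fos-/- against Fos+/+ spleen. Of the 4 members bright enough, 1 was higher and 1 lower in Fos-/- spleen, where 6.42% of 4997 bright genes were 2-fold higher and 6.48% were 2-fold lower. Cdh11 was the higher one, at 61.7 in Fos-/- spleen against 20.8 in Fos+/+ spleen, or 2.97-fold. Twist2 was the lower one, at 34.5 in Fos-/- spleen against 93.5 in Fos+/+ spleen, or 2.71-fold. Ibsp was 1.38-fold higher and Twist1 1.19-fold lower in Fos-/- spleen, neither reaching 2-fold. Among all genes whose brighter array lay between 2 and 6 times the floor (39.6 to 119), the range that holds both Cdh11 and Twist2, 17.9% differed 2-fold in either direction.

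The osteoclast markers had a median log2 ratio of -2.88 between the same arrays. Several of them were far brighter than Cdh11 and Twist2, so the sizes of the ratios are not compared. Of 9 on the array, 8 were bright enough and 7 were lower in Fos-/- spleen, and the summed intensity of the list was 2093 in Fos-/- spleen against 13331 in Fos+/+ spleen. Ctsk, the osteoclast protease cathepsin K, read 61.3 in Fos-/- spleen against 2862 in Fos+/+ spleen. The stromal fibroblast markers summed to 14437 in Fos-/- spleen against 13116 in Fos+/+ spleen, with 1 of 12 bright members, Vcam1, 2-fold higher. The part of cell composition in the Cdh11 and Twist2 ratios was not tested.

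What deltaNFAT virus did in cells without Fos was addressed against the GFP virus. Again 1 of 4 bright members was higher and 1 lower, where 3.54% of 5032 genes were higher and 2.58% lower with deltaNFAT. Cdh11 read 25.4 with deltaNFAT against 97.2 with GFP and was 3.83-fold lower. Twist2 read 76.4 with deltaNFAT against 17.7 with GFP, which was under the floor, and was at least 3.86-fold higher. Ibsp was 1.35-fold lower and Twist1 1.10-fold higher. In the range between 2 and 6 times the floor, 11.4% of genes differed 2-fold between these 2 arrays.

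Against Fos-/- spleen without virus, deltaNFAT gave the same directions at smaller size. Cdh11 was 2.43-fold lower with deltaNFAT and Twist2 2.21-fold higher, 1 of 4 members each way, where 11% of 5180 genes were higher and 6.66% lower and 24.4% of those between 2 and 6 times the floor differed in either direction. This ratio and the one over GFP share the deltaNFAT array and are not independent. The GFP virus against no virus gave 0 of 3 bright members higher and 0 lower, where 10.3% of 5113 genes were higher and 7.06% lower and the median log2 ratio of all these genes was -0.11. There Cdh11 read 97.2 with GFP and 61.7 without virus, or 1.58-fold, Ibsp differed by 1.03-fold and Twist1 by 1.25-fold, and Twist2 was too dim in both arrays to be counted.

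Fos+/+ bone marrow against Fos+/+ spleen compared the source of the haematopoietic cells. Cdh11 was 3.62-fold higher in bone marrow, at 75.3 in bone marrow against 20.8 in spleen. Twist2 was at least 4.72-fold lower, its bone marrow value being negative at -19.0 against 93.5 in spleen. These were 1 of 4 members in each direction, where 13.2% of 5291 genes were higher and 7.18% lower in bone marrow. In the range between 2 and 6 times the floor, 29.2% differed 2-fold in either direction. After quantile normalization the counts of all genes were 523 higher and 497 lower in place of 696 and 380. Ibsp was 1.23-fold higher and Twist1 1.15-fold lower in bone marrow. The Fos+/+ spleen array enters this ratio and that of Fos-/- over Fos+/+ spleen, and it holds the lowest Cdh11 and the highest Twist2 value of the series, so the same reading stands behind both ratios of each gene.

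**Figure D2:**
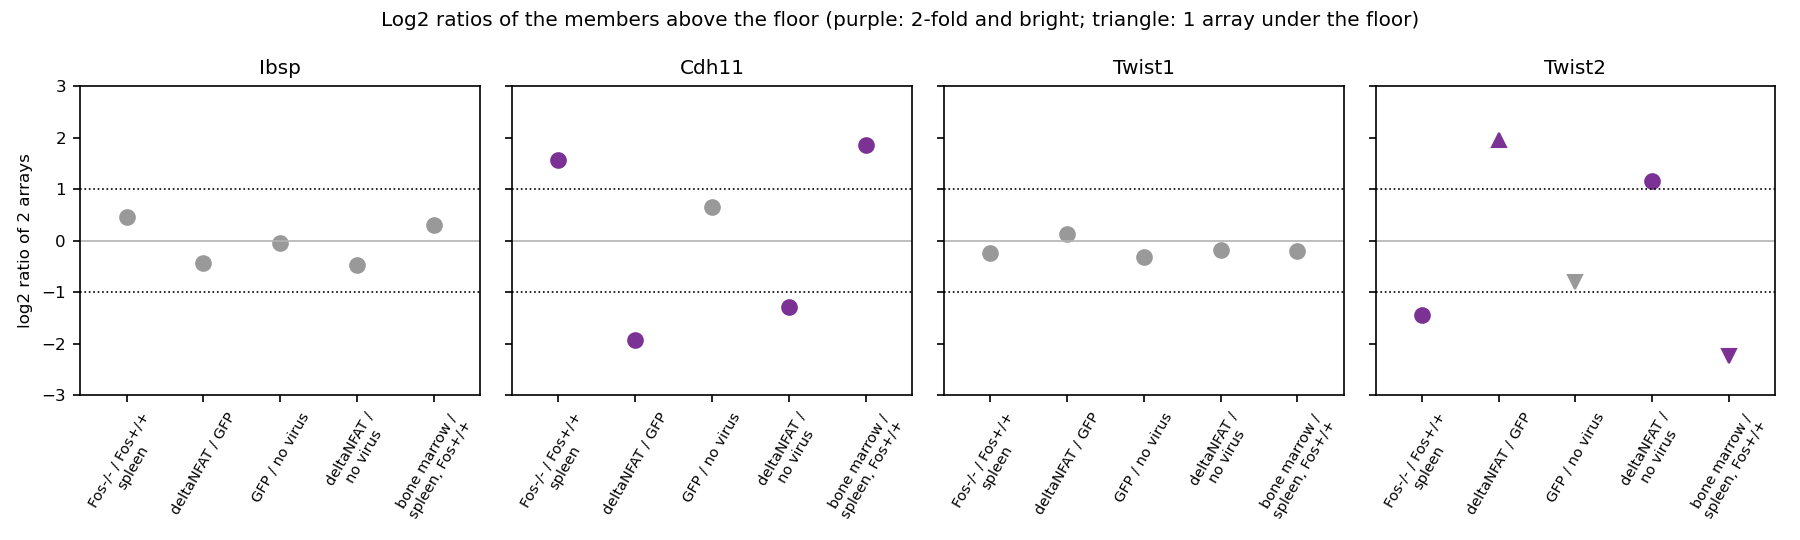
Log2 ratios of the 4 members above the floor in the 5 comparisons, each a ratio of 2 arrays; dotted lines mark 2-fold, purple marks pass it with a bright enough array, and triangles are bounds because 1 array was under the floor. Cdh11 and Twist2 pass in 4 of 5 comparisons with opposite signs, and Ibsp and Twist1 in none.

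The agreement of different probe sets of the same gene gives some scale for these ratios. Between Fos-/- and Fos+/+ spleen, 371 genes had a pair of probe sets that each exceeded the floor in both arrays, the dimmer of the pair lying in the range of 2 to 6 times the floor, and the ratios of the pair differed by a median of 1.28-fold. For 11.6% of these genes the pair differed by 2-fold or more. For deltaNFAT over GFP this share was 8.21% of 414 genes, and for bone marrow over spleen 21.6% of 380 genes. Cdh11, Twist1 and Twist2 each had a single probe set and could not be checked in this way.

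The genes whose 5 values ran most like those of Cdh11 were sought among 4799 other genes above the floor in all arrays, by the Euclidean distance between log2 values centred on each gene's mean. The nearest were Ncoa5, a nuclear receptor coactivator, at 0.78, Defb2, a beta-defensin, at 0.80, and Stmn2, a stathmin of the neuronal cytoskeleton, at 0.84, where the median distance of all genes was 2.06. Ncoa5 read 35.9 with deltaNFAT, 114 with GFP, 89.6 in Fos-/- spleen, 85.3 in Fos+/+ bone marrow and 46.4 in Fos+/+ spleen. Stmn2 read 34.5, 121, 140.5, 140.5 and 48.7 in the same arrays. Other probe sets of Stmn2 read 24.9, 28.3, 27.5, 36.5 and 22.0, and 20.7, 50.2, 48.3, 48.3 and 37.0, there. With unsuffixed probe sets or their mean, Stmn2 did not reach 2-fold in Fos-/- over Fos+/+ spleen or bone marrow over spleen. These genes were also dim, and with 5 arrays a near profile describes these arrays only.

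**Figure D3:**
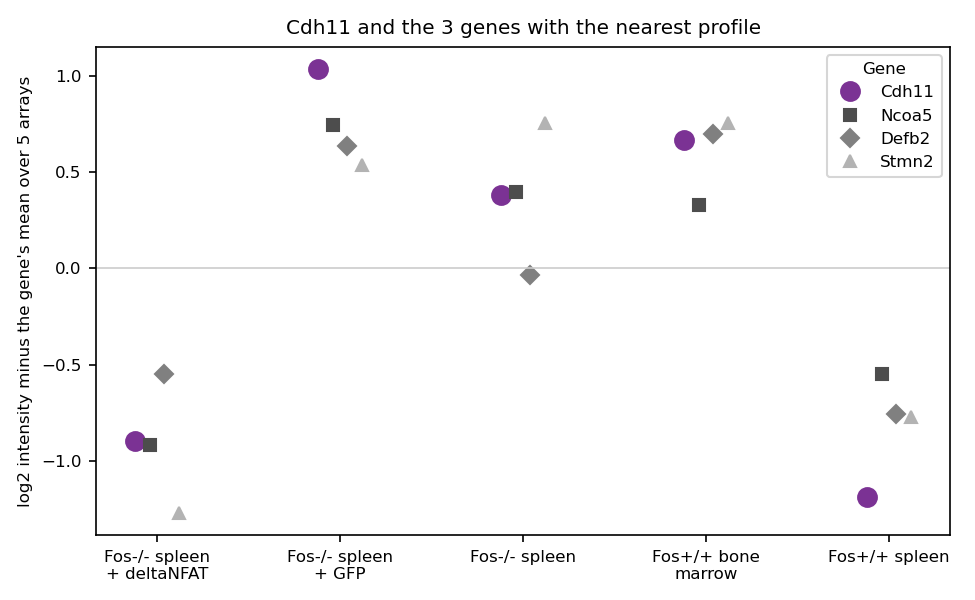
Log2 intensity minus each gene's mean over the 5 arrays, for Cdh11 and the 3 genes nearest to it, 1 point per array with points of a group set side by side. All 4 genes are below their mean with deltaNFAT and in Fos+/+ spleen and above it with GFP and in Fos+/+ bone marrow; in Fos-/- spleen Defb2 is close to its mean.

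The partners through which RUNX proteins act were analysed although Runx2 was not. CBFB, the subunit with which RUNX proteins bind DNA, read 661 with deltaNFAT, 606 with GFP, 547 in Fos-/- spleen, 653 in Fos+/+ bone marrow and 563 in Fos+/+ spleen. Of 8 RUNX partner genes on the array, 0 were 2-fold higher and 0 lower in Fos-/- over Fos+/+ spleen. There 6.42% of all genes were higher and 6.48% lower. The median log2 ratio was 0.17 over 6 bright partner genes, beside 0.03 for all genes. With deltaNFAT over GFP 0 partner genes were higher and 0 lower, where 3.54% of all genes were higher and 2.58% lower. The median was -0.30 over 5 bright partner genes, beside -0.00 for all genes. In bone marrow over spleen 2 of 6 were lower, where 7.18% of all genes were: the deacetylase gene Hdac3, at -30.4 in bone marrow against 67.9 in spleen, and the ubiquitin ligase gene Stub1, at 111 in bone marrow against 235 in spleen. Hdac3 was also lower with GFP over no virus, at 10.3 with GFP against 54.7 without virus.

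Of the other regulators of osteoblasts, 15 were on the array and 9 bright enough in Fos-/- over Fos+/+ spleen. Of these 9, 0 were higher and 2 lower (median log2 ratio -0.16), where 6.48% of all genes were lower. The 2 were Dlx2, a homeobox relative of Dlx5, at 22.5 in Fos-/- against 53.9 in Fos+/+ spleen, and Nfatc1, which is also the main transcription factor of osteoclasts, at 23.5 in Fos-/- against 751 in Fos+/+ spleen. With deltaNFAT over GFP, 4 of 9 were higher and 0 lower (median 0.39), where 3.54% of all genes were higher and 6.42% of those between 2 and 6 times the floor. They were Dlx2, at least 2.16-fold, the Notch target Hey1, the muscle and bone factor Mef2c, 2.58-fold, and Nfatc1, 3.53-fold. The ratios of Dlx2, Mef2c and Nfatc1 were all lost with the floor at 65.1. Hey1 lies outside the rule for named genes and is given to complete the count. With deltaNFAT over no virus 2 of 10 were higher, Mef2c and Nfatc1, and 1 lower, Fosl2. There 11% of all genes were higher and 6.66% lower, and Dlx2 was 1.90-fold higher, under 2-fold. With GFP over no virus 0 of 7 were higher and 2 lower, Fosl2 and Hey1, where 10.3% of all genes were higher and 7.06% lower. Mef2c was counted on the brightest of 4 probe sets, the other 3 being under the floor in every array, and its ratio did not reach 2-fold in their mean. Whether the Nfatc1 probe set also reads a viral transcript was not tested.

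Helix-loop-helix partners and inhibitors of the TWIST proteins numbered 13 on the array. In Fos-/- over Fos+/+ spleen 3 of 11 bright genes were higher and 0 lower (median log2 ratio 0.42), where 6.42% of all genes were higher. Id1, an inhibitor that binds away the E-proteins, read 147 with deltaNFAT, 172 with GFP, 325 in Fos-/- spleen, -2.60 in Fos+/+ bone marrow and 72.4 in Fos+/+ spleen, so that all Fos-/- arrays exceeded both Fos+/+ arrays. Id4, another such inhibitor, was 2.74-fold higher in Fos-/- spleen, and Tcf3, which encodes the E-proteins E12 and E47, at least 3.53-fold. Neither separated the Fos genotypes. Id4 read 18.6 with deltaNFAT, 18.4 with GFP, 62.1 in Fos-/- spleen, 60.1 in Fos+/+ bone marrow and 22.7 in Fos+/+ spleen. Tcf3 read 115, 57.9, 69.9, 103 and 14.3 in the same arrays. Both ratios were lost with the floor at 65.1. Of genes between 2 and 6 times the floor, 9.05% were higher in Fos-/- over Fos+/+ spleen. Tcf4, a further E-protein gene, read 283 with deltaNFAT and 323 with GFP against 72.1 in Fos-/- spleen, and 225 in Fos+/+ bone marrow against 52.1 in Fos+/+ spleen. With deltaNFAT over GFP the list had 0 of 10 higher and 1 lower, the repressor gene Snai1, also named outside the rule. Of all genes, 3.54% were higher and 2.58% lower there.

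Relatives of Cdh11 were compared next. Of 14 other cadherins and catenins, 7 were bright in Fos-/- over Fos+/+ spleen, where 6.42% of all genes were higher. Of these 7, 1 was higher and 0 lower (median log2 ratio 0.22). The 1 was Cdh13, an atypical cadherin anchored by a lipid tail, which read 168 with deltaNFAT, 198 with GFP, 181 in Fos-/- spleen, 84.1 in Fos+/+ bone marrow and 89.1 in Fos+/+ spleen. It was thus near 2-fold higher in each Fos-/- array than in each Fos+/+ array, at 2.03-fold between the spleen arrays, and did not reach 2-fold there after quantile normalization. In bone marrow over spleen 1 of 8 was higher and 0 lower, where 13.2% of all genes were higher. The higher one was Cdh5, the cadherin of endothelial cells, at 46.3 in bone marrow against -8.80 in spleen. Cdh2, the neural cadherin that osteoblasts also make, was under the floor in all 5 arrays. Cdh3, placental cadherin, read 106 with deltaNFAT and -4.90 with GFP, but its other probe set read 62.1 with deltaNFAT and 66.6 with GFP.

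Downstream of Pth1r, 19 genes of its signalling were on the array. Of all bright genes, 6.42% were higher in Fos-/- over Fos+/+ spleen. There 2 of 14 bright genes of this list were higher and 0 lower (median log2 ratio 0.27). These were the adenylyl cyclase gene Adcy6, 2.22-fold, and Nr4a1, an early nuclear receptor target of the hormone, at least 2.95-fold. With deltaNFAT over GFP 0 of 14 were higher and 0 lower, where 3.54% of all genes were higher and 2.58% lower. Ramp2, a receptor accessory protein, read 51.7 with deltaNFAT and 36.3 with GFP against 188 in Fos-/- spleen, and 72.0 in Fos+/+ bone marrow against 199.6 in Fos+/+ spleen.

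The matrix that osteoblasts and fibroblasts lay down was measured by many genes. Of 17 bone and collagen matrix genes other than Ibsp, 13 were bright in Fos-/- over Fos+/+ spleen, 0 higher and 1 lower (median log2 ratio 0.28), and 0 of 13 differed 2-fold with deltaNFAT over GFP (median 0.04). Of all genes, 6.42% were higher and 6.48% lower in Fos-/- over Fos+/+ spleen, and 3.54% higher and 2.58% lower with deltaNFAT over GFP. Col1a2, the other collagen I chain, read 2432 with deltaNFAT, 2366 with GFP, 2176 in Fos-/- spleen, 1877 in Fos+/+ bone marrow and 2042 in Fos+/+ spleen. Sparc, the bone glycoprotein osteonectin, ran from 467 in Fos+/+ bone marrow to 961 in Fos-/- spleen. The lower gene was the proteoglycan decorin, Dcn, at 24.9 for the deltaNFAT virus, 11.3 for the GFP virus and 14.1 in Fos-/- spleen, against 321 in Fos+/+ bone marrow and 320 in Fos+/+ spleen. Its values separate the Fos genotypes of the haematopoietic cells completely. Among the members above the floor only Twist1 also did so, and barely, with 50.3 in Fos-/- spleen against 51.8 in Fos+/+ bone marrow.

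**Figure D4:**
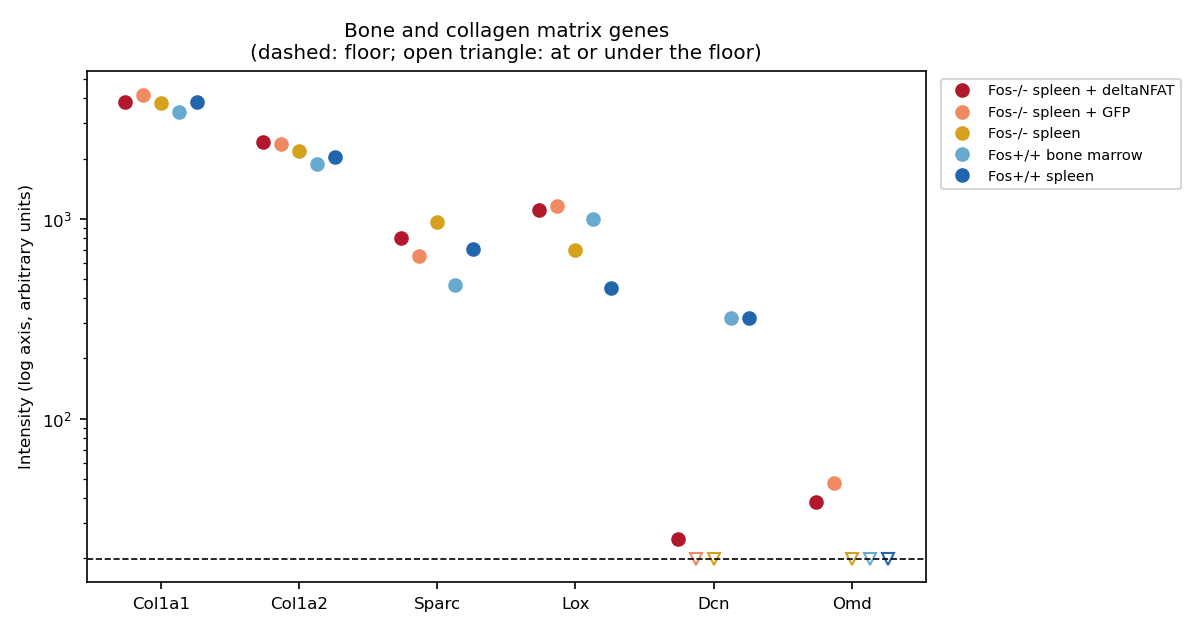
Intensity (log axis, arbitrary units) of 6 bone and collagen matrix genes, 1 point per array coloured by group, with the floor of 19.8 dashed and open triangles at or under it. Col1a1 and Col1a2 are close in all arrays, Sparc runs from 467 to 961, Dcn is at 321 and 320 in the Fos+/+ arrays and at 24.9 or less in the Fos-/- arrays, and Omd is above the floor only in the 2 virus arrays.

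Osteomodulin, Omd, a keratan sulphate proteoglycan of mineralised matrix, read 38.3 with deltaNFAT and 47.5 with GFP, against -4.40 in Fos-/- spleen, 12.3 in Fos+/+ bone marrow and -2.50 in Fos+/+ spleen. In the list of mineral and phosphate handling 1 of 8 genes was higher and 2 lower in Fos-/- over Fos+/+ spleen (median log2 ratio -0.05). Of all bright genes there, 6.42% were higher and 6.48% lower. Akp3, an intestinal-type alkaline phosphatase, was 2.08-fold higher, a ratio that quantile normalization brought under 2-fold, and the phosphate transporter gene Slc20a1 2.13-fold and annexin A2, Anxa2, 2.04-fold lower. In the BMP list 0 of 9 bright genes were higher and 0 lower there (median 0.40), and with either virus over no virus 1 of 10 was higher, the BMP-binding protein gene Twsg1, at 115 with deltaNFAT and 89.0 with GFP against 34.3 without virus. Over no virus, 11% of all genes were higher with deltaNFAT and 10.3% with GFP. In the Wnt list 0 of 13 were higher and 2 lower in Fos-/- over Fos+/+ spleen (median 0.30), where 6.48% of all genes were lower. The 2 were the receptor gene Fzd1, at least 3.39-fold, and the co-receptor gene Lrp5. With deltaNFAT over GFP 3 of 13 were higher and 0 lower (median -0.07), namely Ccn5, a matricellular protein gene, the secreted DKK family gene Dkk3, at 98.8 with deltaNFAT against 31.3 with GFP, and the secreted antagonist gene Sfrp2. Of all genes, 3.54% were higher with deltaNFAT over GFP. Over no virus, Ccn5 was 1.32-fold and Dkk3 1.44-fold higher with deltaNFAT, neither reaching 2-fold. There 2 of 13 of the Wnt list were higher, Fzd1 and Tcf7l2, and 1 lower, Fzd2. Of all genes, 11% were higher and 6.66% lower with deltaNFAT over no virus. With GFP over no virus 3 of 12 were higher, Fzd1, Lrp6 and Tcf7l2, and 2 lower, Ccn4 and Dkk3 (median -0.42). In that comparison 10.3% of all genes were higher and 7.06% lower. Lrp5, Lrp6, Sfrp2, Fzd2 and Ccn4 are named outside the rule.

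The signals by which stroma supports osteoclasts showed little of RANKL. Tnfsf11, which encodes RANKL, lay between 5.20 and 16.5 and under the floor in all arrays, and its decoy receptor gene Tnfrsf11b (osteoprotegerin) ran from 80.7 with deltaNFAT to 113 in Fos+/+ bone marrow. Of 6 bright genes of that list, 0 were higher and 0 lower in Fos-/- over Fos+/+ spleen or in deltaNFAT over GFP. Of all genes, 6.42% were higher and 6.48% lower in the former comparison, and 3.54% and 2.58% in the latter. The vitamin D target Cyp24a1, which breaks down vitamin D, read 354 with deltaNFAT and 260 with GFP against 817 in Fos-/- spleen. Its other probe set was under the floor in every array. In the mean of its probe sets, neither virus array differed 2-fold from Fos-/- spleen.

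**Figure D5:**
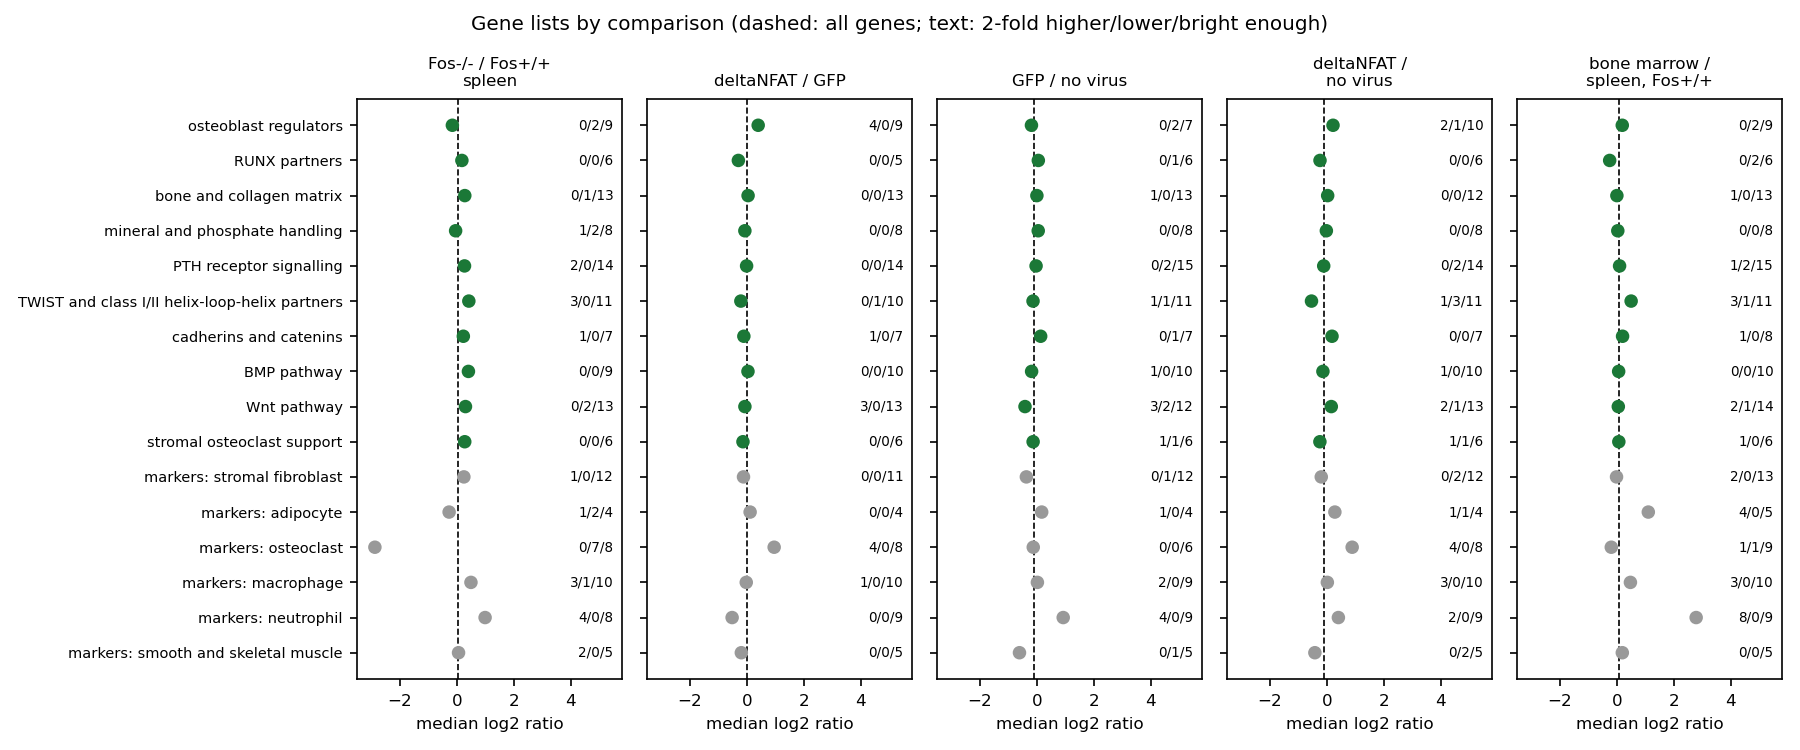
Median log2 ratio of each gene list over its bright members in the 5 comparisons (green: pathway lists; grey: cell type markers), with the median of all bright genes dashed and the numbers of genes 2-fold higher, 2-fold lower and bright enough printed at the right of each row. The medians of the pathway lists run from -0.54 (TWIST partners, deltaNFAT over no virus) to 0.50 (TWIST partners, bone marrow over spleen), and the osteoclast markers lie at -2.88 in Fos-/- over Fos+/+ spleen.

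Marker intensities were also summed by list in the 5 arrays, and cell number and RNA per cell cannot be told apart in these sums. The stromal fibroblast list, 13 of 14 genes above the floor and Thy1 under it in all arrays, summed to 13141 with deltaNFAT, 13453 with GFP, 14437 in Fos-/- spleen, 12302 in Fos+/+ bone marrow and 13116 in Fos+/+ spleen, a span of 1.17-fold. The smooth and skeletal muscle list, 6 of 8 above the floor and Myh11 and Acta1 under it, spanned 1.36-fold, from 3190 in Fos+/+ spleen to 4327 in Fos-/- spleen. The adipocyte list, 6 of 8 above the floor with Retn and Cd36 under it, ran from 1199 in Fos+/+ spleen to 2195 in Fos+/+ bone marrow. Macrophage markers, 10 of 10 above the floor, ran from 6430 in Fos+/+ spleen to 8982 with GFP, and neutrophil markers, 9 of 9, from 1681 in Fos+/+ spleen to 9886 in Fos+/+ bone marrow. Osteoclast markers summed to 3766 with deltaNFAT, 1948 with GFP, 2093 in Fos-/- spleen, 10729 in Fos+/+ bone marrow and 13331 in Fos+/+ spleen. A sum is weighted towards its brightest genes, so these spans are not set against those of single members. The part of these cell types in the members' values was not tested.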

How the data were processed

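RNA of 5 co-cultures was read on 5 arrays of 12488 probe sets, 1 per group. For every probe set the authors deposited a linear intensity; the software is not given in the sources used. Trimmed of 2% at each end, array means were 100.1, and 20.3 to 22.4% of values were at or below 0. Groups came from the sample titles.

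Arrays were scaled to equal trimmed means, values were floored at the 40th percentile (19.8) and log2 was taken (Python 3.11.15, pandas 2.3.3, numpy 2.4.6). Names came from the platform annotation: 10855 probe sets had 1 symbol, 396 several and 1237 none. The brightest probe set stood for each of 8251 genes. No test was run, since groups had 1 array; the number of arrays limits all precision. A difference needed 2-fold and a brighter array of 39.6. The procedure was tested on simulated data. Members and the 16 gene lists were chosen with earlier results of these data known. Named genes were the members, up to 4 genes with the largest ratios of each list, 10 fixed genes where measured, and the 3 nearest profiles of any member above the floor in all arrays and spanning 2-fold. Alternatives changed scaling, floor, probe sets and fold. RefSeq promoters were searched for motifs as letters.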

Additional observations from a re-analysis of the deposited data

How the results depend on the processing

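The 8 differences found for members, 4 of Cdh11 and 4 of Twist2, were the same 8 after quantile normalization, with their directions kept. They were also the same with values as deposited, in the mean of all probe sets and with unsuffixed probe sets. Those settings could hardly change them. Cdh11 and Twist2 each have a single probe set, with no letter suffix, and the scale factors of the arrays ran only from 0.999971 to 1.00003. With the floor at the 60th percentile (65.1) all counts of members, higher and lower, in every comparison were 0. At 3-fold they were 0 in each direction for Fos-/- over Fos+/+ spleen and for deltaNFAT over no virus, and 4 remained in deltaNFAT over GFP and bone marrow over spleen. A planned floor at the 20th percentile was not run because that value is negative (-1.20) and has no log. A floor at the 30th percentile (7.40), chosen after seeing the data, kept all 8. Of 122 ratios of named genes that passed, 40 were kept under every alternative that gave the gene a value, and 52 were lost at the floor of 65.1. The reversals were Mpo with either virus over no virus (log2 ratio -0.35 with unsuffixed probe sets) and Pdgfra in bone marrow over spleen (-0.21 in the mean of its probe sets). Both settings brought in other probe sets. That of Mpo read 10.7 with deltaNFAT and 15.9 with GFP, under the floor, against 25.3 in Fos-/- spleen. For Pdgfra, 1 of them read -34.5 in Fos+/+ bone marrow against 63.2 in Fos+/+ spleen. Why probe sets of a gene differed was not tested. The counts of all genes at the floor of 65.1 were 125 higher and 139 lower in Fos-/- over Fos+/+ spleen, 37 and 21 in deltaNFAT over GFP, 235 and 106 in GFP over no virus, 243 and 129 in deltaNFAT over no virus, and 264 and 146 in bone marrow over spleen. At the floor of 7.40 they were 509 and 510, 377 and 256, 774 and 566, 858 and 505, and 1003 and 574. No paired analysis was possible because each group had 1 array. Signal over background limits every member, Ibsp included, since only 1 of its 2 probe sets was above the floor.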

Other observations

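Some stromal and precursor genes split the arrays in a way that no member above the floor did, with the virus and bone marrow arrays on one side and both uninfected spleen arrays on the other. Kitl, which encodes the stem cell factor that stromal cells present to haematopoietic cells, read 640 for deltaNFAT, 687 for GFP and 675 in Fos+/+ bone marrow, against 104 in Fos-/- spleen and 87.0 in Fos+/+ spleen. It was 6.16-fold higher with deltaNFAT and 6.62-fold higher with GFP than in Fos-/- spleen without virus, and 7.75-fold higher in bone marrow than in Fos+/+ spleen. Tcf7l2, a Wnt-responsive transcription factor gene, read 81.6 for deltaNFAT, 127 for GFP and 179 in Fos+/+ bone marrow, against 13.1 in Fos-/- spleen and -0.90 in Fos+/+ spleen, although its other probe set was negative in all arrays. The collagen cross-linking enzyme gene Lox read 1105 for deltaNFAT, 1164 for GFP and 994 in Fos+/+ bone marrow, against 701 in Fos-/- spleen and 451 in Fos+/+ spleen. Others of the named genes split the opposite way. Col6a2 read 87.2 for deltaNFAT, 114 for GFP and 164 in Fos+/+ bone marrow, against 438 in Fos-/- spleen and 290 in Fos+/+ spleen. Ramp2 split likewise.

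The macrophage receptor genes Mrc1 and Msr1 split like Kitl, while other macrophage markers did not. With GFP over no virus they were the 2 of 9 bright markers of that list that were higher, with 0 lower. Of all genes, 10.3% were higher and 7.06% lower in that comparison. Marco read 516 for deltaNFAT, 609 for GFP, 761 in Fos-/- spleen, 223 in Fos+/+ bone marrow and 107 in Fos+/+ spleen. Aif1 read 267, 288, 196, 105 and 60.6 in the same arrays. Mrc1 read 1140 for deltaNFAT, 1045 for GFP and 596 in Fos+/+ bone marrow, against 214 in Fos-/- spleen and 58.1 in Fos+/+ spleen. Msr1 read 335 for deltaNFAT, 295 for GFP and 299 in Fos+/+ bone marrow, against 66.0 in Fos-/- spleen and 50.8 in Fos+/+ spleen. These genes were noticed after their values were seen, each ratio is of single arrays, and no cause was tested.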
